A study of Mus musculus with 8 samples.

Results

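The keratin gene family comprised 49 genes of the 19505 named genes measured, chosen by gene symbol alone: Krt followed by a number and at most 1 letter, without the keratin-associated Krtap genes. Each of the 49 genes was represented by 1 probe set. Values are log2 levels from Affymetrix arrays of luminal mammary cells of mice pregnant for 15 days. Cells were released by enzymes from fresh tissue, labelled and sorted by flow cytometry, and amplification started from 500 pg of RNA. The control group and the a3a6KO group held 4 biological replicates each. The name a3a6KO refers to the integrin chains alpha 3 and alpha 6, receptors for laminin, and the titles of these 4 samples also carry the word Ctrl beside DKO, so the groups stand as the cell subtype label gives them. Not given in the sources used here were the strain, the age of the mice, the Cre line, the deleted exons and the genotype of the control mice.

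Keratins are the intermediate filament proteins of epithelial cells. A filament is built from heterodimers of an acidic type I and a neutral to basic type II keratin, so the genes are used in partner pairs that mark the kind of epithelium. Krt8 and Krt18 form the filaments of simple epithelia such as the luminal layer of the mammary gland, Krt5 and Krt14 those of basal layers including myoepithelial cells, Krt1 and Krt10 those of the upper epidermis, and Krt4 and Krt13 those of stratified mucosa. Krt16 and Krt17 are induced in injured or hyperproliferative skin, and a further set builds hair and its inner root sheath.

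In the RefSeq table of assembly GRCm38.p6, 27 keratins lie on chromosome 11, which holds the type I cluster, and 27 on chromosome 15, which holds the type II cluster and the type I gene Krt18. All 27 of chromosome 11 and 22 of the 27 of chromosome 15 had a probe set with a single gene symbol. Krt6a, Krt6b, Krt81, Krt83 and Krt87 were not analysed here. Consequently the usual type II partner of Krt16 is missing from every comparison below.

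Promoter sequences are shown for 5 keratins whose levels carried the results, as examples of steady and of variable members. Each runs from 250 bases before to 50 bases after a start annotated by RefSeq (GRCm38.p6), with matches to 3 motifs on either strand in capitals. The motifs are the TATA box, spelled TATAAA, the element CCACCC of Klf and Sp factors, and GCCNNNGGC, which factors of the AP-2 family bind. Krt8 and Krt18 stayed within a narrow range on all arrays, Krt5 varied, and Krt10 and Krt13 were high on 2 or 3 arrays and within background on the others. Krt8 lies at chr15:102004293-102004592 on the minus strand, Krt18 at chr15:102027966-102028265 on the plus strand, Krt5 at chr15:101712856-101713155, Krt10 at chr11:99389315-99389614 and Krt13, at the more upstream of its 2 annotated starts, at chr11:100121517-100121816, the last 3 on the minus strand.
Krt8: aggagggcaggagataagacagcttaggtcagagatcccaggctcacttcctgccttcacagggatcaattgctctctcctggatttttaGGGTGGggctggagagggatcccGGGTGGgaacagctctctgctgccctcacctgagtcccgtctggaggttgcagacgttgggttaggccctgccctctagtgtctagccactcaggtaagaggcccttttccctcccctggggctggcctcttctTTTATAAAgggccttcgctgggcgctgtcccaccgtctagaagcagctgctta
Krt18: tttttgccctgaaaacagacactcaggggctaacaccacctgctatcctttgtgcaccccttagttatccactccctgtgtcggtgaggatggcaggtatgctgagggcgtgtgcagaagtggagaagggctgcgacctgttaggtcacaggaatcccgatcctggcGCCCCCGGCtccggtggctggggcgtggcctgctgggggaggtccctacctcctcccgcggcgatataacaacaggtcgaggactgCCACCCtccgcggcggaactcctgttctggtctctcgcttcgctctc
Krt5: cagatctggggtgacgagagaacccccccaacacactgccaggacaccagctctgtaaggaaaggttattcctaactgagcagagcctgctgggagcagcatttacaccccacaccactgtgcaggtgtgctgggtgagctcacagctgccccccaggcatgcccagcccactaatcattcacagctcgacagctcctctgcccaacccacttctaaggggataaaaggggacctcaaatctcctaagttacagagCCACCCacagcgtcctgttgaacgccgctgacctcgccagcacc
Krt10: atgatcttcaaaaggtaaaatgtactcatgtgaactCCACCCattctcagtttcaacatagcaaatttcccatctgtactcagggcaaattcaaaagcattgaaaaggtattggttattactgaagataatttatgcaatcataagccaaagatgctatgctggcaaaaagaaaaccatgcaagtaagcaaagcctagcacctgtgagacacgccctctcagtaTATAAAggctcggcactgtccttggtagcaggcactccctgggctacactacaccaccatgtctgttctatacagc
Krt13: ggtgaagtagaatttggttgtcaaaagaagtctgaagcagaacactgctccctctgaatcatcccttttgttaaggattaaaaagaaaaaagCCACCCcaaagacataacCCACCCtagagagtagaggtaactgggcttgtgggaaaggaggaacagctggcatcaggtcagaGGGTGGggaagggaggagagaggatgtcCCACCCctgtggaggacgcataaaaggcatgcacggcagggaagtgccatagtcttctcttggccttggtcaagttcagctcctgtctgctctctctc

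Promoters were found for 36 of the 49 keratins. TATAAA occurred in 19 of these 36 genes (52.8%) and in 15.7% of the 27025 genes with a promoter of the same length, and in 13 keratins it began 20 to 40 bases before the start, as in Krt10, where it began 26 bases before. CCACCC occurred in 17 of the 36 (47.2%, against 34.0% of all genes) and GCCNNNGGC in 7 (19.4% against 18.5%). The GC box GGGCGG occurred in 2 keratins (5.56% against 38.2%) and the AP-1 motif TGANTCA in 1, Krt13 (2.78% against 8.97%). Matches of different motifs overlapped in 1 keratin, Krt7. These counts describe letters in a window and draw nothing from it about any factor. Keratin genes share ancestry, so they are not independent examples.

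The arrays were alike in their bulk, with correlations over all genes of 0.930 to 0.945 within groups and 0.924 to 0.946 between groups. Background was taken on each array as the 95th percentile of 5222 negative control probe sets (the intron probes of the array), which lay between 6.38 and 6.90. A gene below that value can still be expressed. Luminal markers were present on all arrays: Epcam, an epithelial adhesion molecule, ranged from 10.17 to 10.44, and the mean of 5 luminal markers other than keratins from 9.96 to 10.03 in control and from 9.85 to 10.23 in a3a6KO. Krt14 and Acta2, genes of basal and myoepithelial cells, also exceeded background on all 8 arrays, so the samples were not shown to hold luminal cells alone. Of the targeted genes, Itga6 was at 8.73 to 9.14 in control and at 5.95, 3.65, 8.21 and 7.85 in a3a6KO 1 to 4, and Itga3 at 6.72, 6.30, 5.37 and 7.27 in control and 5.11, 4.34, 5.55 and 5.60 in a3a6KO. Itga6 did not overlap between groups, and it still exceeded background in a3a6KO 3 and a3a6KO 4, as on all control arrays. Itga3 exceeded background in control 4 only and overlapped between groups, and neither gene passed the test (limma adjusted p = 0.944 each). Control 2 and control 3 stood apart from the other arrays in the keratins of stratified epithelia, and a3a6KO 4 did so to a lesser degree. The differences and counts of keratins that rest on these arrays are given with and without them.

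Of the 49 keratins, 13 exceeded background on at least 1 array and 5 on all 8 arrays, namely Krt7, Krt8, Krt14, Krt18 and Krt19. Arrays differed in this number: control 1 to 4 had 5, 12, 13 and 7 keratins above background, and a3a6KO 1 to 4 had 6, 5, 5 and 8. The other 36 keratins never exceeded it, with values from 1.75 to 6.50. Among the 4605 genes that exceeded background somewhere, the standard deviation over the 8 arrays had a median of 0.46. The family spanned nearly the whole scale of that measure: 7 of the 13 keratins (Krt1, Krt4, Krt5, Krt10, Krt13, Krt14 and Krt16) lay above its 95th percentile, whereas Krt18 and Krt8 lay at percentiles 3.58 and 4.82.

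**Figure D1:**
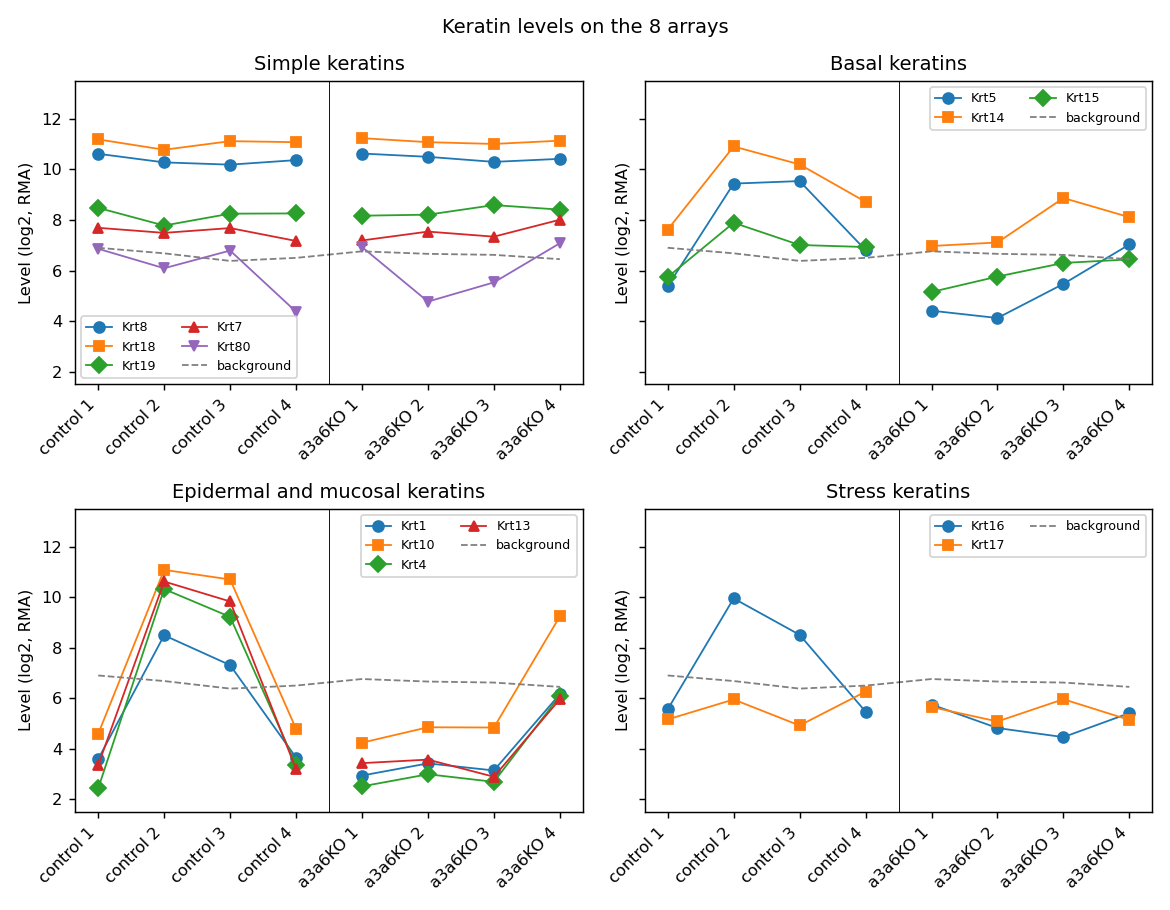
Log2 RMA level of 14 keratins on each of the 8 arrays, in panels by kind of keratin, 1 line per gene and group, with the background of each array dashed. The simple keratins Krt8 and Krt18 are flat, whereas Krt10 stands at 11.08 and 10.70 in control 2 and 3, 9.24 in a3a6KO 4 and at most 4.85 on the other 5 arrays.

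Of the simple keratins, those of the luminal layer, 4 (Krt7, Krt8, Krt18 and Krt19) were at closely similar levels in both groups. Krt8, the type II keratin of simple epithelia, was at 10.62, 10.28, 10.19 and 10.37 in control 1 to 4 and at 10.63, 10.50, 10.30 and 10.42 in a3a6KO 1 to 4. The groups overlapped, and control 1 and a3a6KO 1 were highest. The difference of a3a6KO from control was 0.10 on the log2 scale (SE 0.16, 95% interval -0.27 to 0.46, limma adjusted p = 0.976), less than the spread between replicates.

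Krt18, the type I partner of Krt8, was at 11.19, 10.78, 11.12 and 11.08 in control and at 11.24, 11.08, 11.01 and 11.14 in a3a6KO. Control 2 was the lowest and the remaining 7 values lay within 0.23 of each other. Its difference was 0.08 (SE 0.16, 95% interval -0.28 to 0.43, limma adjusted p = 0.978).

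Krt19, a small type I keratin of simple epithelia without a tail domain, was at 8.48, 7.78, 8.25 and 8.26 in control and at 8.17, 8.21, 8.59 and 8.41 in a3a6KO. Control 2 was again the lowest array, and the groups overlapped (difference 0.15, SE 0.20, limma adjusted p = 0.964). Krt7, a type II keratin of ducts and glands, was at 7.69, 7.49, 7.68 and 7.17 in control and at 7.19, 7.54, 7.34 and 8.01 in a3a6KO, with a difference of 0.01 (SE 0.22, limma adjusted p = 0.997). Control 4 was the lowest and a3a6KO 4 the highest array for Krt7.

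Krt80, a type II keratin, varied more than these 4 and without regard to group. It was at 6.86, 6.09, 6.79 and 4.37 in control and at 6.93, 4.77, 5.53 and 7.08 in a3a6KO, and it exceeded background in control 3, a3a6KO 1 and a3a6KO 4. Its mean difference was 0.05 (SE 0.66, 95% interval -1.44 to 1.54), which became -0.50 without control 4. Krt23, a type I keratin, was at 4.99, 4.22, 5.44 and 5.45 in control and 6.50, 5.04, 5.12 and 6.40 in a3a6KO, and Krt20, a keratin of gut and bladder lining, ranged from 2.22 to 3.10. Neither exceeded background on any array. Krt23 missed it by 0.05 in a3a6KO 4, the nearest of the 36 keratins that never exceeded it. Among the 13 that did, Krt80 was the nearest, exceeding it by at most 0.63. The difference of Krt23 was 0.74 (SE 0.42, limma adjusted p = 0.946). In the list of simple keratins 6 of 7 members had a higher mean in a3a6KO, where 50.1% of all genes had a lower one. The median difference of the list was 0.075, and 0 members had an unadjusted limma p under 0.05.

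Basal keratins had lower means in a3a6KO in 3 of 3 members, where 50.1% of all genes did. However, the groups overlapped in each, and levels varied between the arrays of a group. Krt14, the type I keratin of basal and myoepithelial cells, was at 7.62, 10.91, 10.20 and 8.72 in control and at 6.97, 7.11, 8.87 and 8.11 in a3a6KO. Control 2 and control 3 were highest, a3a6KO 3 exceeded control 4, and control 1 lay below a3a6KO 3 and a3a6KO 4, so the groups overlapped. The means were 9.36 ± 1.48 and 7.76 ± 0.89 (SD, n = 4), a difference of -1.60 (SE 0.71, limma adjusted p = 0.944, exact permutation p = 0.143).

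Krt5, the type II partner of Krt14, was at 5.38, 9.44, 9.54 and 6.81 in control and at 4.41, 4.12, 5.47 and 7.03 in a3a6KO. It exceeded background in control 2 to 4 and in a3a6KO 4, and a3a6KO 3 and a3a6KO 4 both exceeded control 1. Its difference was -2.54 (SE 0.99, 95% interval -4.76 to -0.31, limma adjusted p = 0.944, exact permutation p = 0.143).

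Krt15, a type I keratin of basal cells, was at 5.74, 7.89, 7.01 and 6.93 in control and at 5.15, 5.76, 6.30 and 6.44 in a3a6KO. It exceeded background in control 2, 3 and 4 and on no a3a6KO array, though a3a6KO 4 lay just under it (6.44 against 6.45). Only control 1 fell within the range of the a3a6KO values. Its difference was -0.98 (SE 0.45, limma adjusted p = 0.944, exact permutation p = 0.143). In samples of many cells such as these, fewer cells of a type and less RNA of a gene per cell cannot be told apart.

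Leaving out control 2 and control 3 shrank these differences to -0.41 for Krt14, -0.84 for Krt5 and -0.42 for Krt15. Leaving out a3a6KO 4 as well gave -0.52, -1.43 and -0.60. Without control 2 alone they were -1.08, -1.99 and -0.65. Without control 4 and a3a6KO 3 together, the difference of Krt14 was -2.18 and that of Krt5 -2.93. All 3 genes kept a lower mean in a3a6KO in each of these fits, with a size that depended on the arrays included.

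Krt5 and Krt14 varied together over the 8 arrays, with Pearson r = 0.926 (exact permutation p = 0.0045, Benjamini-Hochberg adjusted 0.0134 over 3 pairs) and Spearman rho = 0.857 (exact permutation p = 0.0107, adjusted 0.0321). Without control 2 and control 3, the arrays farthest from the median of Krt5, r was 0.729, and with values centred on the group means it was 0.882. For Krt8 and Krt18 r was 0.615 (exact permutation p = 0.0783, adjusted 0.117) and rho 0.695 (exact permutation p = 0.063, adjusted 0.0945), and r was 0.281 without control 1 and a3a6KO 1. For Krt7 and Krt19 r was 0.193 (exact permutation p = 0.666, adjusted 0.666) and rho 0.262 (exact permutation p = 0.536, adjusted 0.536), and r was 0.062 without control 4 and a3a6KO 4. Krt1 and Krt10, and likewise Krt4 and Krt13, fell into separate clusters of arrays, so no r was computed for them. The levels of these 4 genes are set out array by array below.

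The keratins of stratified epithelia made the sharpest contrast between arrays. Krt10, the type I keratin of differentiating epidermis, was at 4.59, 11.08, 10.70 and 4.79 in control and at 4.24, 4.85, 4.84 and 9.24 in a3a6KO. Control 2, control 3 and a3a6KO 4 exceeded background, and the other 5 arrays lay between 4.24 and 4.85. Krt1, the type II partner of Krt10, was at 3.59, 8.49, 7.31 and 3.65 in control and at 2.94, 3.42, 3.14 and 6.16 in a3a6KO, with the same 3 arrays on top.

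Krt13, the type I keratin of stratified mucosa, was at 3.35, 10.62, 9.83 and 3.19 in control and at 3.43, 3.57, 2.89 and 5.96 in a3a6KO. Its type II partner Krt4 was at 2.43, 10.32, 9.22 and 3.36 in control and at 2.51, 2.99, 2.69 and 6.10 in a3a6KO. In each of Krt1, Krt4, Krt10 and Krt13 the order at the top was control 2, control 3 and a3a6KO 4, and the lowest to highest array differed by 5.55, 7.89, 6.84 and 7.73 log2 units. The epidermal pair and the mucosal pair were thus raised on the same arrays. Of these genes only Krt10 exceeded background in a3a6KO 4.

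In these 4 genes the group means rest on the 3 raised arrays. The differences were -2.00 for Krt10 (SE 1.72), -1.85 for Krt1 (SE 1.19), -2.79 for Krt13 (SE 1.71) and -2.76 for Krt4 (SE 1.76), with limma adjusted p of 0.950, 0.948, 0.946 and 0.947. Without control 2 and control 3 the signs turned, to 1.10, 0.30, 0.69 and 0.68. Without a3a6KO 4 as well they were -0.047, -0.45, 0.027 and -0.17. The means thus turned with the arrays included, and 0 of the 4 genes passed the test in any of these fits.

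The other 9 measured members of the epidermal and mucosal list stayed below background on every array, between 2.34 and 6.21. Among them Krt76, a type II keratin of the oral mucosa, was at 2.95, 4.30, 2.80 and 3.25 in control and at 2.57, 2.73, 2.57 and 2.52 in a3a6KO, and its groups did not overlap. Control 2 was the highest array here too. Its difference was -0.73 (SE 0.31, limma adjusted p = 0.944, exact permutation p = 0.0286, the smallest that the 70 assignments allow), and it was -0.40 without control 2 and -0.50 without control 2 and control 3. In the whole list 12 of 13 members had a lower mean in a3a6KO, against 50.1% of all genes. The median difference of the list was -0.20, and it was 0.14 without control 2 and control 3.

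Krt16, the type I keratin of wounded and hyperproliferative epidermis, was at 5.56, 9.95, 8.51 and 5.47 in control and at 5.75, 4.82, 4.46 and 5.41 in a3a6KO. Control 2 and control 3 alone exceeded background, and a3a6KO 4, raised for Krt10, was not raised for Krt16. Its difference was -2.26 (SE 0.93, limma adjusted p = 0.944, exact permutation p = 0.114) and shrank to -0.41 without control 2 and control 3. Krt17, its neighbour on chromosome 11 and a keratin of injured skin and of myoepithelial cells, did not follow it. Krt17 was at 5.16, 5.95, 4.92 and 6.26 in control and at 5.65, 5.08, 5.96 and 5.14 in a3a6KO, below background on every array, and was highest in control 4, a3a6KO 3 and control 2 (difference -0.12, SE 0.33, limma adjusted p = 0.983).

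**Figure D2:**
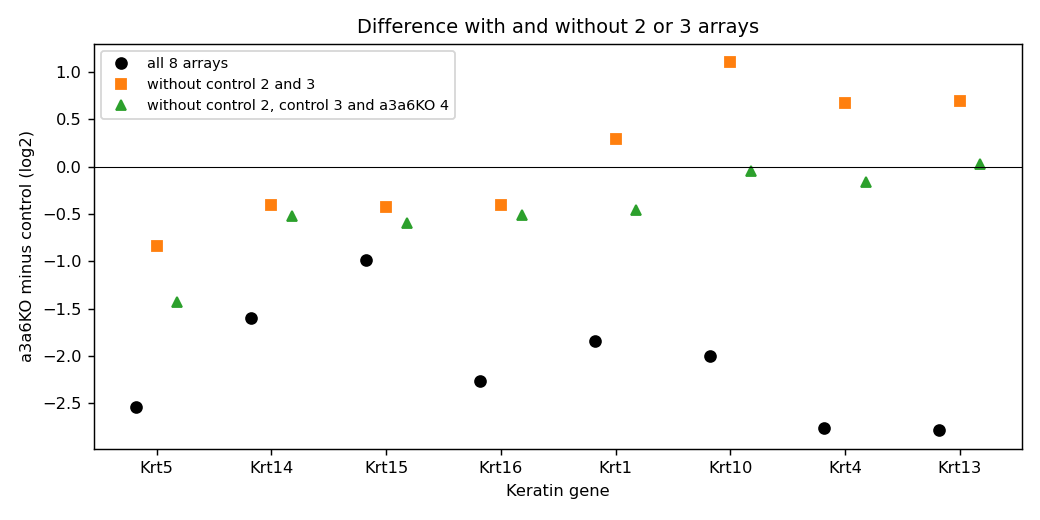
Difference of a3a6KO from control (log2, vertical axis) for 8 keratins, with all arrays (circles), without control 2 and 3 (squares) and without these and a3a6KO 4 (triangles). The difference of Krt13 is -2.79, 0.69 and 0.027 in turn, while that of Krt5 is below 0 in all 3 fits (-2.54, -0.84 and -1.43).

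Some keratins that lie next to each other in the clusters had their highest values on the same arrays, and others did not. On chromosome 11, Krt13, Krt15 and Krt19 follow each other among the keratins, and control 2 held the highest value of Krt13 and Krt15 and the lowest of Krt19. Farther on come Krt9, Krt14, Krt16 and Krt17. Krt14 and Krt16 were both highest in control 2 and then control 3, whereas Krt9, a keratin of palm and sole skin, ranged from 2.34 to 3.16 over all arrays. On chromosome 15, Krt4 is followed by Krt79, Krt78, Krt8 and Krt18. Krt79 stayed between 2.60 and 3.88, and Krt8 and Krt18 were the steadiest of the detected keratins, although Krt4 spanned 7.89 log2 units.

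Hair and inner root sheath keratins were at background throughout. The 12 measured hair keratins lay between 1.75 and 5.32 and the 9 keratins of the inner root sheath and companion layer between 1.92 and 4.30, with 0 of these 21 above background on any array. Krt26, of the inner root sheath, was at 2.42, 2.63, 2.91 and 2.63 in control and at 3.11, 3.35, 3.11 and 2.89 in a3a6KO, with only a3a6KO 4 inside the control range. Its difference of 0.47 (SE 0.17, limma adjusted p = 0.944, exact permutation p = 0.0571) had the smallest unadjusted p of the family, below background on every array. Krt71, also of the inner root sheath, differed by 0.36 (SE 0.18), and the hair keratins Krt39 and Krt82 by -0.33 (SE 0.21) and -0.20 (SE 0.18), all with limma adjusted p of at least 0.944. Median differences were 0.12 in the inner root sheath list and -0.025 in the hair list. Control 2, control 3 and a3a6KO 4, raised for Krt1 and Krt10, were at background for all 21 of these keratins.

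Over the family, limma called 0 of 49 keratins at an adjusted p of 0.05, where it called 0.0% of all 19505 genes. At an unadjusted limma p under 0.05 there were 5 keratins (10.2%, against 5.13% of all genes), of which 4 were lower in a3a6KO (Krt5, Krt14, Krt16 and Krt76, 8.16%, against 2.73% of all genes) and 1 higher (Krt26, 2.04%, against 2.40%). The groups did not overlap in 2 keratins, Krt24 and Krt76 (4.08%, against 2.94% of all genes). Krt24, a type I keratin below background throughout, was at 4.18 to 4.28 in control and at no more than 4.14 in a3a6KO. A fall of at least 1.5-fold in the mean was seen in 9 keratins (18.4%, against 4.11%) and a rise of that size in 1, Krt23 (2.04%, against 3.69%). Of the 49 genes 30 had a lower mean in a3a6KO (61.2%, against 50.1%), and the median difference was -0.072 in the family and -0.0025 over all genes. In counts added after seeing the data, without control 2 and control 3, a fall of at least 1.5-fold remained in 1 keratin, Krt5 (2.04%, against 6.13% of all genes), and 23 of 49 had a lower mean (46.9%, against 49.6%). Without a3a6KO 4 as well, Krt5 and Krt15 had such a fall (4.08%, against 6.79%), and 26 had a lower mean (53.1%, against 49.5%). Since 8 of the 9 genes 1.5-fold lower were highest in control 2 or control 3 and exceeded background there, these shares count the same 2 arrays many times over. Krt76, the ninth, was highest in control 2 as well.

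**Figure D3:**
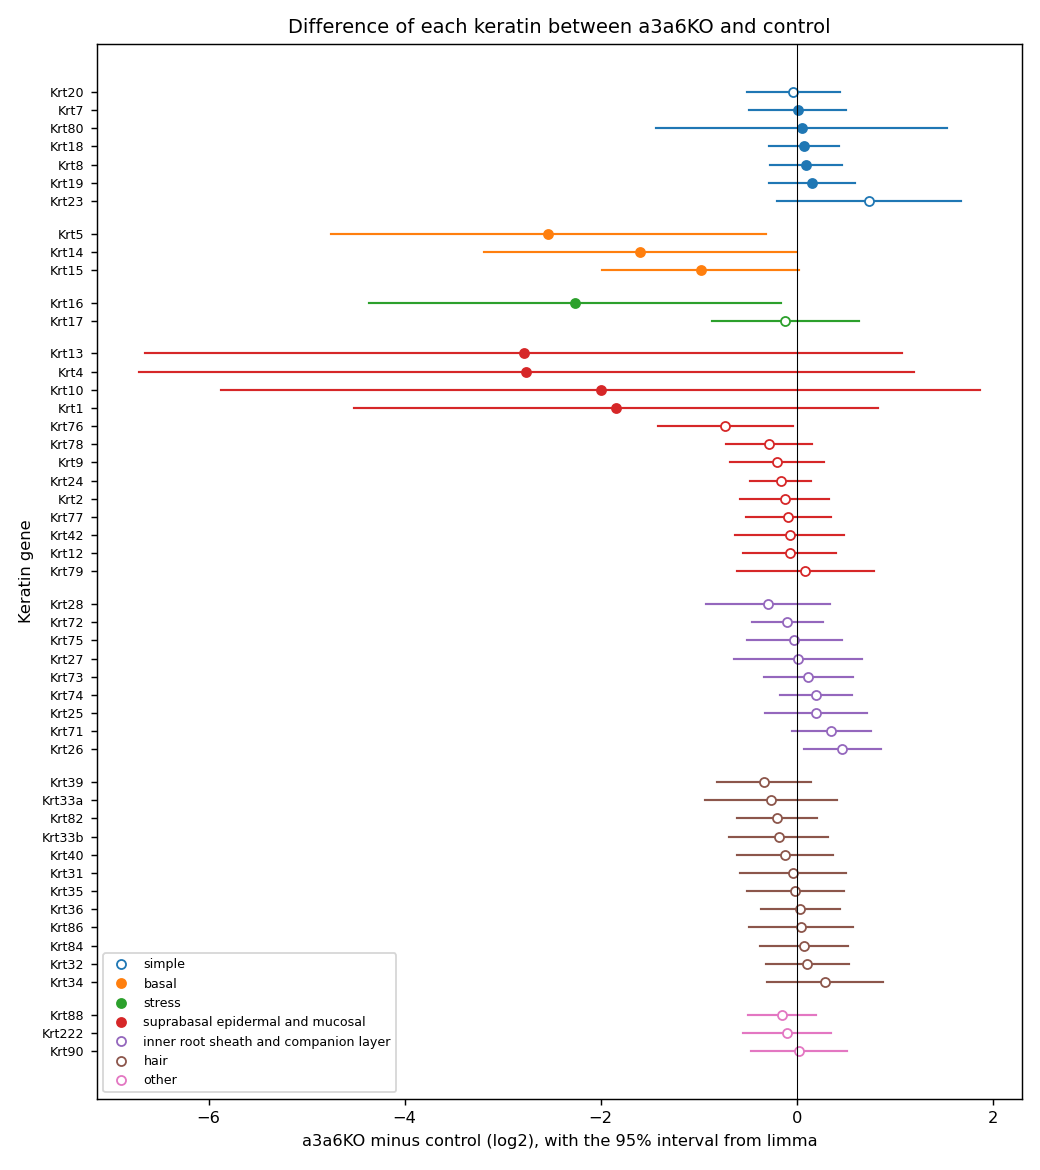
Difference of a3a6KO from control (log2, horizontal axis) for each of the 49 keratins with its 95% interval from limma, grouped by kind; filled points exceeded background on at least 1 array. Intervals are widest for Krt4, Krt13 and Krt10, which reach from below -5 to above 1, and narrow for Krt8 and Krt18.

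Of other genes of stratified epithelium, Sprr1a was highest on the arrays where Krt13 was highest, and Lor and Ivl were flat. Sprr1a, a precursor of the cornified envelope, was at 3.59, 7.22, 7.47 and 4.00 in control and at 3.47, 2.92, 3.69 and 4.53 in a3a6KO. Sfn, a 14-3-3 protein of stratified epithelia, was at 7.54, 8.71, 7.99 and 7.98 in control and at 6.82, 7.59, 7.98 and 7.25 in a3a6KO, above background on all arrays. Control 2 was the highest array for Sfn, while control 4 and a3a6KO 3 nearly equalled control 3. Lor and Ivl, cornified envelope proteins of the late epidermis, stayed below background, at 4.46 to 5.02 and 2.42 to 3.08. Over the 5 measured squamous or stress markers that are no keratins (Sprr1a, Sprr1b, Ivl, Sfn and Lor, 3 of them above background somewhere), the mean level was 4.68, 6.30, 5.78 and 4.76 in control and 4.66, 4.70, 4.80 and 4.77 in a3a6KO. It was raised in control 2 and control 3, and a3a6KO 4 lay within the range of the other a3a6KO arrays. The part of such cells in the keratin differences was not tested.

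Markers of contractile myoepithelial cells were high on different arrays. Acta2, smooth muscle actin, was at 8.17, 8.82, 7.44 and 10.37 in control and at 8.07, 7.72, 9.80 and 6.98 in a3a6KO, and Cnn1, a calponin, at 7.17, 6.99, 5.40 and 9.50 in control and 5.84, 5.79, 8.83 and 6.11 in a3a6KO. Both were highest in control 4 and a3a6KO 3, where Krt14 was intermediate, at 8.72 and 8.87. In control 3, Krt14 was at 10.20 while Acta2 and Cnn1 were low. In a3a6KO 4, where Krt10 was at 9.24, Krt14 was at 8.11, below control 4 and a3a6KO 3. Of 10 basal and myoepithelial markers other than keratins, 8 were above background somewhere. The mean level of the 10 ran from 5.34 to 7.87 in control and from 5.34 to 7.35 in a3a6KO. A lower mean in a3a6KO was seen in 9 of the 10, against 50.1% of all genes. The part of these markers in the difference of Krt14 was not tested.

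**Figure D4:**
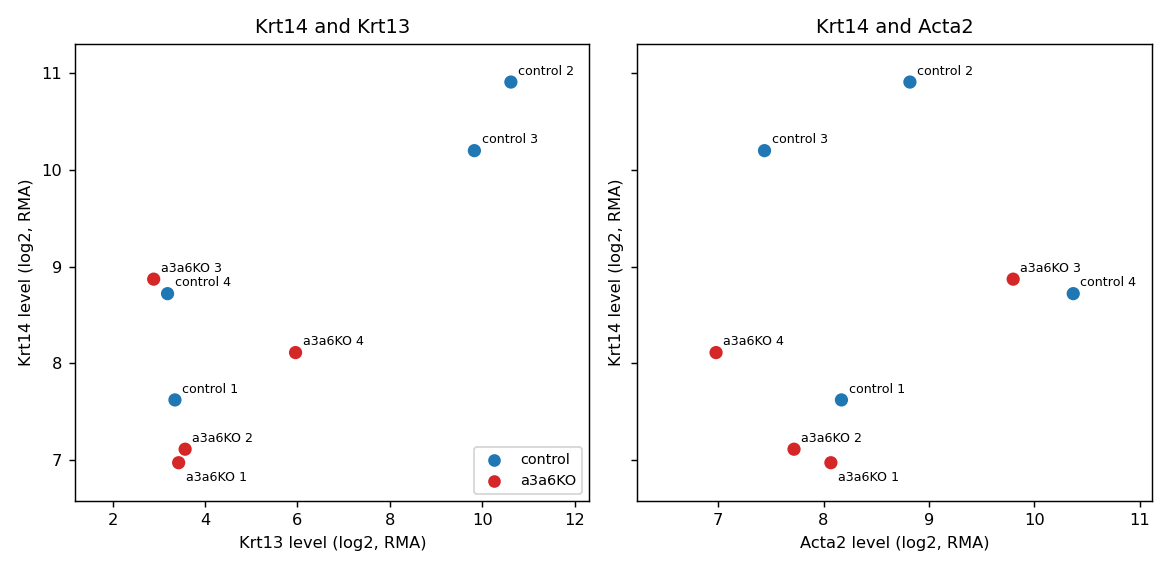
Krt14 level (log2, vertical axes) against the level of Krt13 (left) and of Acta2 (right), 1 point per array. Control 2 and 3 are high for Krt14 and Krt13, whereas control 4 and a3a6KO 3 are high for Acta2, low for Krt13 and at 8.72 and 8.87 for Krt14.

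Among markers of other tissues, the endothelial and the fibroblast means were highest on the same arrays as Acta2 and Cnn1. The mean of 6 endothelial markers was highest in control 4 (6.55) and a3a6KO 3 (5.99) and at most 4.77 on the other arrays. It was 4.14 in control 2 and 4.37 in control 3. Not every endothelial marker followed the mean. Emcn was highest in a3a6KO 1 (6.65), and Kdr was higher in a3a6KO 4 (5.24) than in a3a6KO 3 (5.17). The mean of 5 fibroblast markers lay between 4.05 and 4.69 in control and between 4.09 and 5.15 in a3a6KO, that of 5 leukocyte markers between 3.93 and 4.91 and between 3.82 and 4.22, and that of 4 adipocyte markers between 4.78 and 5.29 and between 4.76 and 5.53. Control 3 held the highest leukocyte mean, with Ptprc, the pan-leukocyte phosphatase, at 7.07 there and at most 4.84 elsewhere.

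Keratin filaments end at desmosomes. The partner list examined held desmosome and plakin genes (19), binding and turnover genes (8), other intermediate filaments (7) and transcription factors (11). Of 45 genes listed, 41 were measured. In the desmosome and plakin part 12 had a lower and 6 a higher mean in a3a6KO. In the whole list 26 had a lower and 15 a higher mean (median -0.14), where 50.1% of all genes had a lower mean. Limma called 0 at an adjusted p of 0.05, with 3 lower and 0 higher at an unadjusted p under 0.05, where 2.73% of all genes were lower and 2.40% higher. The smallest p belonged to Trp63, the transcription factor of basal epithelial cells that drives Krt5 and Krt14. It was at 5.24, 8.37, 6.12 and 6.45 in control and at 4.39, 3.18, 5.12 and 3.77 in a3a6KO. The groups of Trp63 did not overlap, but only control 2 exceeded background, and the difference was -2.43 (SE 0.64, limma adjusted p = 0.944). In a3a6KO 4, where Krt10 was high, Trp63 was at 3.77.

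Trim29, a tripartite motif protein, was at 4.75, 6.88, 7.20 and 4.50 in control and at 3.94, 4.87, 4.54 and 4.21 in a3a6KO, above background in control 2 and 3 (difference -1.44, SE 0.60, limma adjusted p = 0.944). Among genes with higher means, the smallest p belonged to Pkp2, a desmosomal plakophilin (0.59, SE 0.33), and Col17a1, a hemidesmosomal collagen (0.38, SE 0.26), both below background throughout. Desmosomal genes included some with the profile of the stratified keratins. Dsp, desmoplakin, which anchors keratin filaments, was at 4.49, 9.02, 8.66 and 5.31 in control and at 4.82, 4.46, 5.03 and 6.39 in a3a6KO. Pkp1, a plakophilin of stratified epithelia, was at 5.32, 8.28, 8.28 and 5.37 in control and 5.78, 5.35, 6.08 and 6.37 in a3a6KO. By contrast Jup, plakoglobin, stayed between 9.26 and 9.97 and Dsg2, the desmoglein of simple epithelia, between 7.54 and 8.31.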

How the data were processed

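Per the submitters' processing notes, the authors made the deposited log2 values with Affymetrix Expression Console and RMA (background correction, quantile normalization between arrays, 1 value per probe set); versions and genome build were not given in the sources used here. Quantile normalization would remove a shift shared by most genes. Values ran from 0.96 to 13.28. GEO's platform annotation gave a single symbol to 19572 of 28846 probe sets. Sets with more than 1 symbol were left out, and 19505 genes remained after keeping the set of highest mean per symbol. No array repeated another. Groups were compared with limma 3.58.1 in R 4.3.3 (lmFit, eBayes, group as the only term, 8 arrays, two-sided, Benjamini-Hochberg over all genes), tested on simulated data. Exact permutation tests were two-sided over 70 assignments. Partner pairs were skipped where a gap of over 50% of the range split the arrays. The number of arrays limits the precision. Arrays were left out, rescaled, reweighted and blocked by replicate number as alternatives.

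The keratins, lists, pairs and alternatives were chosen with earlier results of these data known. Genes were named if they were keratins above background on an array or among 18 listed keratins whatever their level. Of these 18, Krt6a and Krt6b had no set with a single symbol. Also named were the 2 of smallest p per keratin list or in each direction of the partner list, Itga3, Itga6, Sprr1a and Sfn. Krt9, Krt24, Krt79, Epcam, Lor, Ivl, Acta2, Cnn1, Emcn, Kdr, Dcn, Fabp4, Ptprc, Dsp, Pkp1, Jup, Dsg2 and the genes under the other observations were named after their values were seen.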

Additional observations from a re-analysis of the deposited data

Results flagged for a closer look

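A single a3a6KO array lay far from the other 3 in 3 keratins, among 42 sets of 4 arrays examined (21 keratins in each group), where chance marks about 1 in 20. In a3a6KO 4, Krt10 was at 9.24, 4.39 above the next array of its group, Krt1 was at 6.16, 2.74 above the next, and Krt4 was at 6.10, 3.11 above the next. The same array was highest of its group for Krt5 (7.03) and Krt13 (5.96), where the gap was smaller relative to the range. Krt1, Krt4 and Krt13 were below background even there.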

How the results depend on the processing

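Under all 18 alternative fits, limma called 0 keratins and 0 genes in all, and the smallest adjusted p of a keratin ran from 0.786 to 0.996. Keratins with an unadjusted p under 0.05 numbered 5, from 1 to 7 when 1 array was left out, 2 without control 2 and 3, 2 without these and a3a6KO 4, 3 without control 4 and a3a6KO 3, and 1 with dim genes left out, where 6 keratins were tested. With the replicate number as a block the count was again 5. Whether equal numbers mark paired samples is not stated by the labels. Deviations of same-numbered arrays correlated at 0.0315, 0.0395, -0.053 and -0.061, and those of differently numbered arrays at -0.084 to 0.136. Such small values cannot decide whether samples were paired. Without control 2 and 3 the differences reversed for Krt1 (0.30), Krt10 (1.10), Krt13 (0.69), Krt4 (0.68), Krt8 (-0.033), Krt18 (-0.018), Krt19 (-0.025) and Krt20 (0.020). Without these and a3a6KO 4, which was chosen after seeing the data, they reversed for Krt13 (0.027), Krt7 (-0.073), Krt8 (-0.018), Krt18 (-0.025), Krt19 (-0.047) and Krt20 (0.040). Without control 4 and a3a6KO 3 they reversed for Krt7 (-0.040) and Krt80 (-0.32), and with cyclic loess for Krt7 (-0.0040). With 1 array left out, Krt17 ranged from -0.33 to 0.11, Krt18 from -0.013 to 0.12, Krt20 from -0.16 to 0.13, Krt7 from -0.15 to 0.12 and Krt80 from -0.50 to 0.49. Of the list medians, the stress list moved to -0.33 in both fits without control 2 and 3 and to -2.26 for Krt16 alone, its only detected member. The epidermal and mucosal list went to 0.14 without control 2 and 3 and to -2.38 over its 4 detected members. The simple list reversed to -0.018 and the hair list to 0.0058 without the 3 arrays, and the hair list ranged from -0.076 to 0.030 with 1 array left out. All keratins together had 0.018 without control 2 and 3 and -1.60 over the 13 detected. Krt1, Krt4, Krt13, Krt15 and Krt16 exceeded background on control arrays only. Choosing detected members thus favours a lower median in a3a6KO, so the medians over detected members do not measure a group difference. The median 95% interval reached 1.59 to either side in the 13 detected keratins and 0.53 over all genes. These sets are unlike, since only 4605 of the 19505 genes exceeded background on any array.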

Other observations

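Genes outside the family shared the profile of Krt13. Ranked by correlation with Krt13 over the 8 arrays among genes above background on at least 1 array, and chosen after the values were seen, the nearest included several genes of cornifying and mucosal epithelium. Calml3, a calmodulin-like protein of stratified epithelia, was at 5.30, 8.35, 7.91 and 5.31 in control 1 to 4 and at 4.72, 4.80, 4.92 and 5.96 in a3a6KO 1 to 4. Krtdap, a secreted protein of differentiating keratinocytes, was at 3.85, 9.96, 8.33 and 2.85 in control and at 3.01, 3.22, 3.38 and 6.65 in a3a6KO. Spink5, a protease inhibitor of stratified epithelia, was at 3.20, 7.61, 6.93 and 3.60 in control and at 3.34, 3.28, 3.40 and 4.18 in a3a6KO. Tmprss11b, a membrane protease, was at 2.37, 6.71, 6.74 and 2.28 in control and at 2.42, 2.08, 2.22 and 3.53 in a3a6KO. Perp, a p53 target and desmosomal protein, was at 6.36, 9.55, 9.18 and 6.59 in control and at 6.23, 5.91, 6.44 and 8.21 in a3a6KO. These 5 genes were picked from the 12 nearest. Control 2 and control 3 were the highest arrays in each of them, and a3a6KO 4 was the third, an order that the ranking by Krt13 favours.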
